A study of Mus musculus with 1699 samples.

Results

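The homeobox and paired box genes that give neural tissue its regional identity were followed in single cells of the mouse ventral midbrain. Members were chosen by name. They are the protein-coding genes whose symbol begins with Lhx, Nkx, Dlx, Irx, Hoxa, Hoxb, Hoxc, Hoxd, Onecut or Meis followed by digits, together with Pbx2 to Pbx4, Six2 to Six6 and Pax1 to Pax9, without Lhx9 and Nkx2-1. The members described are 93 of the 38923 genes of the table, of which 21225 were protein-coding. The Hox clusters gave 38 members, the Nkx genes 13, Pax 9, Lhx 7, Dlx and Irx 6 each, Six2 to Six6 5, and Pbx, Meis and Onecut 3 each.

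These genes encode transcription factors that bind DNA through a homeodomain or, in the Pax proteins, a paired domain, and that mark out regions of the neural tube along its length and from its floor to its roof. Hox genes are known for the hindbrain and spinal cord, Dlx genes for GABA neurons of the forebrain, and Pax5 with Pax2 and Pax8 for the boundary of midbrain and hindbrain. Pbx and Meis proteins belong to the TALE class, whose members bind DNA together with Hox and other homeodomain proteins, and they are made in many more tissues than their partners.

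GFP-sorted cells were sequenced one by one with Smart-seq2, which reads whole polyadenylated transcripts. In every mouse the eGFP reporter sat in the Pitx3 locus (allele Pitx3tm1Mli). Pitx3eGFP/wt heterozygotes keep 1 functional copy of Pitx3, a homeodomain factor of midbrain dopamine neurons, and were sampled at embryonic days 13.5, 15.5 and 18.5 and at postnatal days 1, 7 and 90. Pitx3eGFP/eGFP homozygotes, which have no functional copy, were sampled at E13.5 and P1. Of the kept cells 1153 were heterozygous, with 140 at E13.5, 140 at E15.5, 270 at P1, 91 at P7 and 512 at E18.5 and P90 together, and 343 were homozygous. Several animals were used at each stage but none was named for any cell, so each group counts as 1 sample, no test between groups was possible and no p-value is given. Shares of cells carry exact Clopper-Pearson 95% intervals and differences of shares carry Newcombe 95% intervals, and both cover counting error only. For a count of 0 the share it allows is given as that of 3 cells, which lies below the exact upper limit. The embryonic cells were freed with a neural tissue dissociation kit, the P1 and P7 cells with a postnatal neuron kit and the P90 cells with papain. Age and dissociation thus cannot be told apart in comparisons with P90, or between embryonic cells and those at P1 or P7. Among the heterozygous stages, the paper gives spike-in RNA for E18.5, P1 and P90 only. The heterozygous cells at E13.5, E15.5 and P7 had no named plate, and those at E18.5 and P90 all had one. At P1 some lay on a plate with spike-in and the rest had no named plate. In P90 over E13.5, and in other steps between these sets of stages, age cannot be told apart from spike-in and plate either. At E13.5 spike-in RNA was added only to the homozygous cells, and there genotype and spike-in cannot be told apart.

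The 1496 kept cells, 88.1% of all cells, held 100007 to 8634201 reads, with group medians of 753256 to 2357898, and 0 cells had identical reads. The lowest median was that of the homozygous cells at E13.5 and the highest that of the heterozygous cells at E13.5. Genotype thus goes with depth there. At least 3 of 5 neuron markers were over an RPKM (reads scaled by the length of a gene and the depth of a cell) of 10 in 91.4% to 100% of the cells of a group, and at least 3 of 8 dopamine neuron markers in 79.1% to 99.3%. Th, the rate-limiting enzyme of dopamine synthesis, was over 10 in 52.5% to 80.2%. Pitx3 had a mean RPKM of 416 in the heterozygotes and 18.8 in the homozygotes at E13.5, and of 104.7 and 8.35 at P1. At P90 its mean was 17.9, and only 51.1% of the cells had the eGFP reporter over 10. The most common serotonin neuron marker reached 1.23% of the cells of a group, and the most common cranial motor neuron marker 2.20%. At least 3 of 10 oligodendrocyte markers were still over 10 in 17.6% of the P7 cells and in at most 5.49% of the cells of any other group. At least 3 of 4 astrocyte markers were found in up to 5.49% and at least 3 of 4 microglia markers in up to 4.88% of the cells of a group. The maxima for all 3 endothelial and all 3 cycling cell markers were 3.30% and 2.20%. Of the GABA neuron markers Gad2 was over 10 in 11.7% to 32.3% of the cells of a group, Slc32a1 in up to 16.5% and Gad1 in up to 8.79%, while all 3 were over 10 in the same cell in at most 2.20%. The vesicular glutamate transporter Slc17a6 was over 10 in 49.3% to 89.2%.

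Few members were found in more than a handful of cells. A member was counted in a cell when its RPKM was over 10, and 13 of 93 members were found in at least 5% of the cells of at least 1 group. A further 37 were over 10 in at least 1 kept cell, 40 had reads but never passed 10, and Nkx2-6, Hoxc12 and Hoxd12 had no read in a kept cell. The median cell held 3 of the members at E13.5 and in both homozygous groups and 2 in the other 5 groups. The 13 comprised Pbx2, Pbx3, Pbx4, all 3 Meis genes, Lhx1, Lhx5, Nkx6-1, Nkx2-9, Onecut1, Onecut2 and Pax5.

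**Figure D1:**
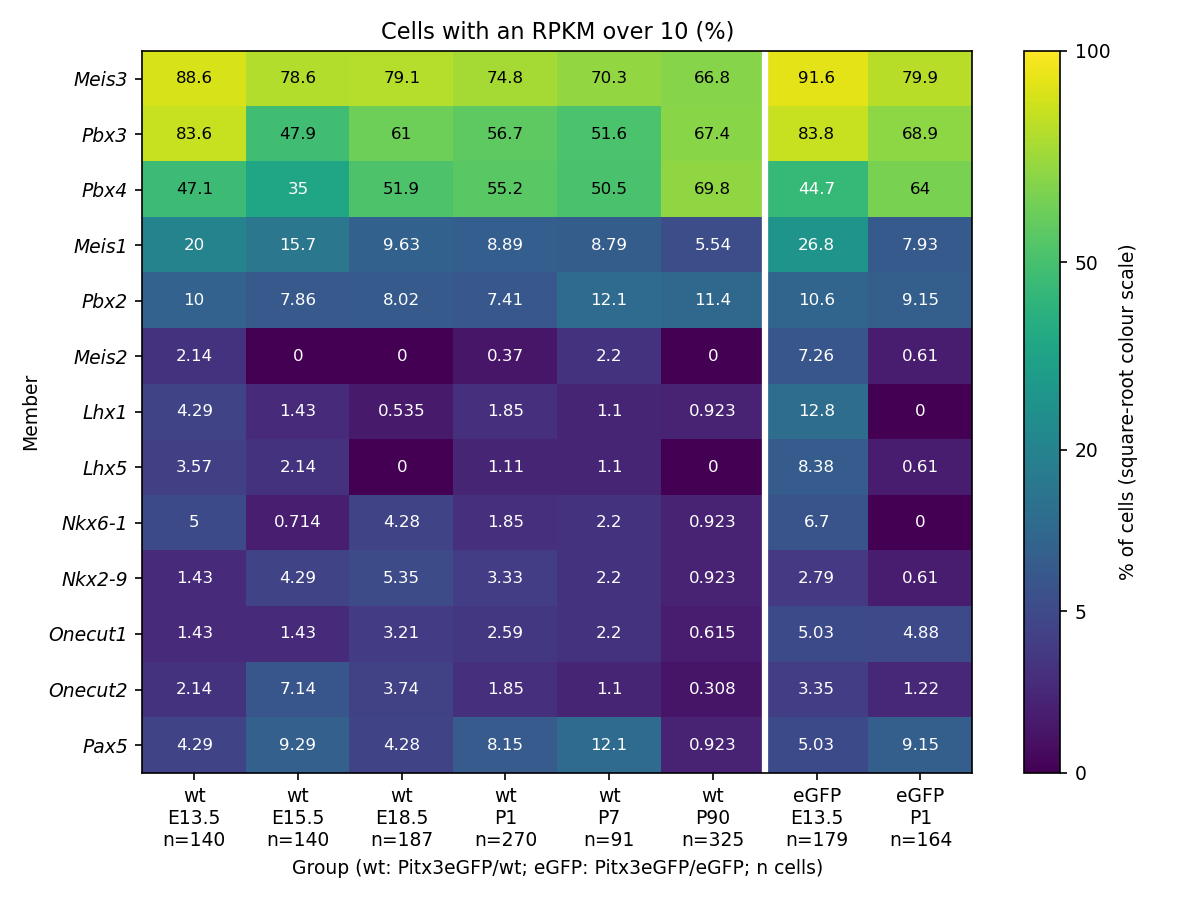
Share of cells with an RPKM over 10, in percent, for the 13 members found in at least 5% of the cells of a group (vertical axis) in the 8 groups of genotype and stage (horizontal axis, n cells below each). Meis3, Pbx3 and Pbx4 fill the upper part of the map, from 35% to 91.6% of cells, Meis1 reaches 26.8%, and the other 9 members reach at most 12.8%.

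Meis3, a partner of Pbx proteins on chromosome 7 (16175090 to 16186504, plus strand, GRCm38), was found in most cells of every group. Shares over 10 were 88.6%, 78.6%, 79.1%, 74.8%, 70.3% and 66.8% of the heterozygous cells in order of age, and 91.6% and 79.9% of the homozygous cells. The mean RPKM of Meis3 ran from 168.05 at E13.5 to 50.9 at P90, and between E18.5 and P1, where the means were 94.3 and 94.9, it differed little.

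Pbx3, on chromosome 2 (34171457 to 34373142, minus strand), did not follow a single direction with age. The heterozygous shares over 10 were 83.6%, 47.9%, 61%, 56.7%, 51.6% and 67.4% in order of age, and the homozygous shares were 83.8% and 68.9%. The heterozygous share at P1 was 74.5% on the plate with spike-in and 47.2% in the cells without a named plate. P1 thus lay above or below E18.5 depending on the cells used. The part of plate, spike-in and dissociation in the differences of Pbx3 between stages was not tested. The lowest share of a whole group lay at E15.5, where the median RPKM of Pbx3 was 5.21 against 97.9 at E13.5. At E18.5 the share was 22.6 points below that at E13.5 (interval of the difference 12.9 to 31.5 points).

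Pbx4, on chromosome 8 (69832491 to 69872292, plus strand), was found in more cells at P90 than at E13.5. The heterozygous shares over 10 were 47.1%, 35%, 51.9%, 55.2%, 50.5% and 69.8% in order of age, and the homozygous shares were 44.7% and 64%. Over the heterozygous stages its mean RPKM stayed between 39.2 and 61.9. The mean among the cells over 10 was 130.6 at E13.5 and 68.8 at P90, so at P90 more cells held it, at a lower mean level.

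**Figure D2:**
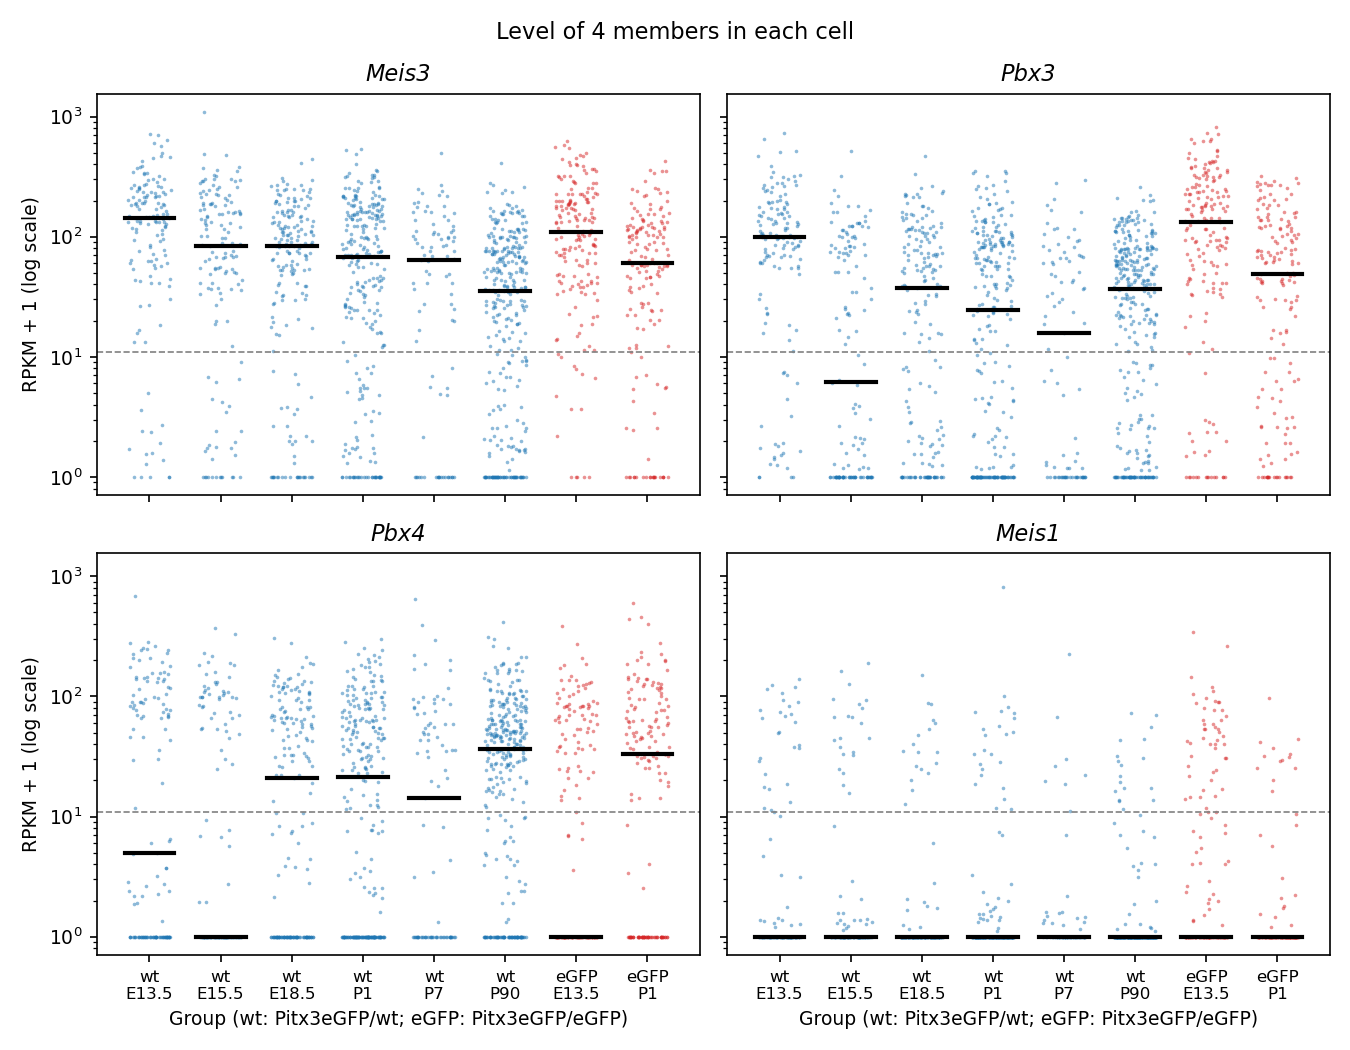
RPKM plus 1 of Meis3, Pbx3, Pbx4 and Meis1 (log axis) in every kept cell, by genotype and stage, with a black bar at the group median and a dashed line at an RPKM of 10. In the heterozygotes the Meis3 median is 141.6 at E13.5 and 34.5 at P90, the Pbx4 median is 3.93 and 35.3, and the Meis1 median is 0 in every group.

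Together these 3 TALE genes were over 10 in the same cell in 32.9%, 10%, 25.7%, 24.8%, 24.2% and 32.9% of the heterozygous cells in order of age. In the homozygotes they were over 10 together in 36.3% and 37.2%. The summed mean RPKM of the 93 members was 396.04 at E13.5 and 153.9 at P90 in the heterozygotes, and the 3 highest of them made up 67.9% to 94.1% of that sum in every group. Those 3 were Meis3, Pbx3 and Pbx4 in every group except P7, where Pax5 ranked above Pbx3.

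Meis1, Meis2 and Pbx2 are the other TALE members described. Meis1 was over 10 in 20%, 15.7%, 9.63%, 8.89%, 8.79% and 5.54% of the heterozygous cells from E13.5 to P90, and in 26.8% and 7.93% of the homozygous cells. Its share was lower at each later stage than at the one before, and its median RPKM was 0 in all 8 groups. Pbx2 stayed between 7.41% and 12.1%, although Gpsm3 overlaps it on the same strand and the reads of the pair may not be fully separated. Meis2 was found in at most 2.20% of the heterozygous cells of a stage and in 7.26% of the homozygous cells at E13.5.

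Promoter sequence is shown for 1 member each of the TALE, LIM and Dlx families that the comparisons below turn on, to set beside their levels. RefSeq gave 70 promoter windows for 60 of the 93 members (GRCm38.p6), and the 250 bases before the start that RefSeq gives were searched on both strands. CCAAT, which reads ATTGG on the other strand, was present in 31 of the 70 windows, or 44.3%, against 33.8% of 32851 promoters. TGACAG, which reads CTGTCA on the other strand and is bound by Meis proteins, was present in 15.7% and 15.9%. The other motifs searched were TGATTGA, bound by Pbx proteins (4.29% against 2.34%), TAATTA, bound by many homeodomains (2.86% against 4.84%), and TATAAA of the TATA box (7.14% against 12.4%). These are matches of letters in a window and say nothing of binding. Capitals mark CCAAT and TGACAG matches on either strand in Meis1 (chr11:19018970-19019219, minus strand), Lhx1 (chr11:84525535-84525784, minus strand) and Dlx2 (chr2:71546755-71547004, minus strand). By the GENCODE annotation 16 bases of the Meis1 window and 1 of the Lhx1 window lie inside the gene. Each window holds 1 CCAAT match, and only that of Lhx1 holds TGACAG.
Meis1: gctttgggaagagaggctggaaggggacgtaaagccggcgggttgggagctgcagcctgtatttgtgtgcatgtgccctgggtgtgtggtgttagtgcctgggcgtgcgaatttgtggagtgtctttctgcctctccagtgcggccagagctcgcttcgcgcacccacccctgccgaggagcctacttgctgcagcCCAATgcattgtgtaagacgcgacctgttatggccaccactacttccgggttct
Lhx1: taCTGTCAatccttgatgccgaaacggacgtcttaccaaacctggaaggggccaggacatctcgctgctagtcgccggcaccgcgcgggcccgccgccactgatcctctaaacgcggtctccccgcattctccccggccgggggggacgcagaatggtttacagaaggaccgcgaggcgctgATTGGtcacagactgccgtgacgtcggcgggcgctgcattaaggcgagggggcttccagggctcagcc
Dlx2: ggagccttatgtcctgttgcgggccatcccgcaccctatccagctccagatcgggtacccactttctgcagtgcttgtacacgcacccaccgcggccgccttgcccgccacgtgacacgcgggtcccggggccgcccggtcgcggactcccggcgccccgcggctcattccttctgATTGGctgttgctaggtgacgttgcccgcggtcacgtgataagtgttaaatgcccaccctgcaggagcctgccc

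The members outside the Pbx and Meis families were each found in a small part of the cells. At least 1 of them was over 10 in 20%, 26.4%, 22.5%, 25.9%, 30.8% and 9.23% of the heterozygous cells in order of age. In the homozygotes the shares were 38.5% at E13.5 and 24.4% at P1. The share was lowest at P90 and highest in the homozygous cells at E13.5.

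Pax5, on chromosome 4 (44524757 to 44710487, minus strand), was the most common of them over all kept cells, while the highest share in a single group was that of Lhx1, in the homozygotes at E13.5. The shares of Pax5 over 10 were 4.29%, 9.29%, 4.28%, 8.15%, 12.1% and 0.923% of the heterozygous cells in order of age. In the homozygous cells they were 5.03% and 9.15%. The heterozygous share at P1 was 3.19% on the plate with spike-in and 10.8% in the cells without a named plate. P1 thus lay below or above E18.5 depending on the cells used. The part of plate, spike-in and dissociation in the differences of Pax5 between stages was not tested. In the 87 cells that held it the median RPKM was 132.4, above the 97.7 of the 1160 Meis3 cells. The antisense gene Gm12462 overlaps Pax5, and without strand the reads of both cannot be told apart.

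Lhx1 and Lhx5 are close LIM homeodomain relatives of early neurons. Lhx1 was over 10 in 4.29% of the heterozygous cells at E13.5 and in 0.535% to 1.85% at the 5 later stages, against 12.8% and 0% of the homozygous cells at E13.5 and P1. Lhx5 was over 10 in 3.57% of the heterozygous cells at E13.5 and 8.38% of the homozygous cells, and in at most 2.14% of any other group. Both were thus most common at E13.5 in the homozygotes. The count of 0 Lhx1 cells at P1 in the homozygotes allows a share of up to 1.83%, and that of 0 Lhx5 cells at E18.5 and at P90 allows 1.60% and 0.923%.

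Nkx6-1 and Nkx2-9 encode factors of the ventral neural tube, and Onecut1 and Onecut2 encode cut homeodomain factors of differentiating neurons. Nkx6-1 was over 10 in 5.0% of the cells at E13.5 in the heterozygotes and in 6.70% in the homozygotes, and in 0.714% to 4.28% at the later heterozygous stages. Nkx2-9 was most common at E18.5, at 5.35%. Onecut2 was most common at E15.5, at 7.14%, and Onecut1 in the homozygotes, at 5.03% and 4.88%. None of these 4 reached 1% at P90.

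The rest of the families were near the limit of what these cells could show. Of the 38 Hox members, 7 were over 10 in any kept cell, each in 1 cell. No such cell was found in the 4 embryonic groups, which allows 1.60% to 2.14% as the share of 3 cells, with exact upper limits of 1.95% to 2.60%. At P1, P7 and P90 in the heterozygotes 1 each was found, and 3 were found at P1 in the homozygotes (1.83%, interval 0.379% to 5.25%). Hoxc8 had a read in 140 cells but passed 10 in 1. Six2 to Six6, a family of eye and craniofacial factors, were each over 10 in at most 4 kept cells, and 5 of 6 Dlx and 4 of 6 Irx members were over 10 in at least 1. Dlx1 and Dlx2 were over 10 in 13 and 12 of the 1496 kept cells, Pax6 in 19 and Pax8 in 16.

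Some of these rare members shared cells. Dlx1 and Dlx2, neighbours on chromosome 2, were both over 10 in 10 cells, which is 76.9% of the Dlx1 cells and 83.3% of the Dlx2 cells, against 1.84% of all cells with Dlx2 in the same mix of groups as the Dlx1 cells. Pax8 and Pax5 were both over 10 in 11 cells, which is 68.8% of the Pax8 cells and 12.6% of the Pax5 cells, against 7.13% of all cells with Pax5 in the same mix of groups as the Pax8 cells. Lhx1 and Lhx5 shared 13 cells, or 31.7% of the Lhx1 cells and 46.4% of the Lhx5 cells, against 5.49% of all cells with Lhx5 in the same mix of groups as the Lhx1 cells, and 9 of the 13 were homozygous cells at E13.5. These overlaps are descriptions, since cells of a group may share an animal or a plate.

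A different set of members was found in the oligodendrocyte-like cells, 9.01% of all cells, that were left out. Nkx2-2 and Pax6 were over 10 in 43.8% and 43.1% of them, and Irx3, Irx2 and Irx5 in 22.9%, 18.3% and 15.7%. In the kept cells of any group each of these 5 was over 10 in at most 3.30%. Meis1 was over 10 in 58.2% of the left-out cells and Meis2 in 19%, while Pbx3 was over 10 in 10.5%, Pbx4 in 30.1% and Pax5 in 0.654%. The clustering that set these cells apart was made on expression in the same cells, so this is a description. Meis3 was over 10 in 39.2% of them. None held Lhx1, Lhx5, Onecut1 or Onecut2, which allows a share of up to 1.96% each.

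The first comparison asks how the members differ between the embryonic and the adult heterozygous midbrain. Levels were compared as mean RPKM over cells, and a member was counted as past 2-fold among those whose average of both group means was at least 1 RPKM. A member that passes this filter only through the group where it is high had to differ, so the number that passed is no evidence by itself. In P90 over E13.5, 8 members passed the filter and 0 were higher by 2-fold or more, where 23.8% of 11984 protein-coding genes were. Lower by 2-fold or more were 5 of the 8, where 22.1% of all genes were. The median log2 difference was -1.60 over the 8 members and -0.05 over all genes tested.

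Of the 5, Meis3, Pbx3 and Meis1 also differed by at least 10 points in their share of cells. Meis3 had a log2 difference of -1.72 and a share lower by 21.8 points (13.8 to 28.6). Pbx3 had a log2 difference of -1.48, and its share at P90 minus that at E13.5 was -16.2 points (-23.6 to -7.65).

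Meis1 had a log2 difference of -2.73 and a share lower by 14.5 points (7.92 to 22.1). Lhx1 and Pax5, the other 2 members past 2-fold, differed by -3.81 and -4.47 on the log2 scale, but each was found in 6 cells at E13.5 and 3 at P90. Pbx4 had a log2 difference of -0.36 beside a share higher by 22.7 points (13.0 to 32.1). With each cell thinned to 100000 reads its shares were 62.8% and 46.4%. Within P90 the 4 named plates gave 66.3% to 78.3% for Pbx4, each above the 47.1% of E13.5. For Meis3 they gave 60.9% to 72.3%, each below the 88.6% of E13.5. Within the heterozygous cells at P1, Pbx4 was over 10 in 60.6% on the plate with spike-in and 52.3% without a named plate. Meis3 was over 10 in 81.9% and 71.02% of the same cells. The part of spike-in and plate in P90 over E13.5 was not tested.

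Partner genes of these families were compared in the same way, as counts. Of 10 LIM cofactors and LIM-only genes, Lmo1 and Lmo2 were higher at P90 and Ldb1, Ldb2 and Ssbp3 lower, with a median log2 difference of -0.03. Of the other 5 TALE genes 4 passed the filter, with Mkx higher and Pknox1, Pknox2 and Tgif2 lower (median -1.54). Pknox2 had a mean RPKM of 12.6 at P90 and 89.8 at E13.5. Of 4 Groucho corepressors, which many homeodomain proteins recruit, Tle1, Tle2 and Tle3 were lower (median -1.82), with a mean RPKM of Tle3 of 5.0 against 134.2. Of 6 Eya and Dach genes, nuclear cofactors, 4 passed and Dach1 alone was past 2-fold, lower. Marker genes of neurons and glia also differed. Of the 8 dopamine neuron markers Nr4a2, Pitx3, En1 and Foxa2 were lower at P90 and Slc6a3 higher, and of the 5 neuron markers Snap25 and Syt1 were higher and Map2 and Stmn2 lower. Gad1, Gad2 and Slc17a6 were higher, as were Mbp and Mag of the 10 oligodendrocyte markers, and the astrocyte marker Slc1a3 was lower. The part of these markers in the differences of members was not tested.

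The second comparison asks what the loss of functional Pitx3 goes with. At E13.5, 17 members passed the filter in Pitx3eGFP/eGFP over Pitx3eGFP/wt, and 10 were higher by 2-fold or more, where 5.37% of 11313 protein-coding genes were. Lower by 2-fold or more were 0 members, where 4.95% of all genes were. The 10 were Lhx1, Lhx5, Meis2, Onecut1, Pax5, Pax8, Irx2, Dlx1, Dlx2 and Nkx6-2. None differed by 10 points in its share of cells, so they are named here after their values were seen. Onecut1, Pax8, Dlx1, Dlx2 and Nkx6-2 had heterozygous means of at most 0.651 RPKM. They passed the filter only through the homozygous cells and so had to be higher, and the count of 10 is no evidence by itself. Without the plate of 22 homozygous cells (13H_5) 4 of 13 members were higher, where 5.55% of all genes were. Without plate 13H_4 1 of 20 was lower, where 5.92% were. At a filter of at least 5 RPKM 3 of 7 were higher (1.83% of all genes) and 0 lower (2.27%). The homozygous cells had fewer reads. With each cell thinned to 100000 reads 9 of 16 members were higher (5.94%) and 1 lower (5.11%).

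Lhx1, on chromosome 11 (84518284 to 84525535, minus strand), was over 10 in 23 homozygous and 6 heterozygous cells, or 12.8% and 4.29%, which differ by 8.56 points (2.27 to 14.7). The mean levels were 10.2 and 3.64 RPKM, and the log2 difference of 1.49 became 1.22 without the highest homozygous cell. The 3 homozygous plates gave 12.6%, 22.7% and 10%, each above the heterozygous share.

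Meis2 was over 10 in 7.26% against 2.14%, a difference of 5.12 points (0.164 to 10.1), and its log2 difference of 2.89 became 1.81 without the highest homozygous cell. Lhx5 was over 10 in 8.38% against 3.57% (difference 4.81 points, -0.747 to 10.2), with a log2 difference of 2.10, or 1.69 without the highest homozygous cell. Onecut1 was over 10 in 5.03% against 1.43% (difference 3.60 points, -0.731 to 7.97). These intervals cover counting error only. With 1 sample of each genotype they cannot show which of these 3 differs by genotype.

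The remaining 6 rested on few cells. Pax5 was over 10 in 9 and 6 cells, and its log2 difference of 1.72 became 0.66 without the highest homozygous cell. Irx2 was over 10 in 5 cells and 1, and likewise went from 1.42 to 0.66. Pax8 and Dlx1 were each over 10 in 3 cells and 1. Dlx2 had 5 homozygous cells and no read in the heterozygotes, and Nkx6-2 had 1 and none. Meis3, Pbx3 and Pbx4 stayed within 2-fold, with log2 differences of -0.19 for Meis3, 0.46 for Pbx3 and -0.79 for Pbx4.

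The homozygous cells at E13.5 also had fewer Th-high cells. Th was over an RPKM of 150 (Th-high) in 64.3% of the heterozygous and 43% of the homozygous cells, and at most 10 (Th-low) in 31.4% and 47.5%. Among Th-low cells alone, Lhx1 was over 10 in 16 of 85 homozygous cells, 18.8%, and 2 of 44 heterozygous cells, 4.55%, a difference of 14.3 points (1.64 to 24.4). Among Th-high cells it was over 10 in 6.49% and 4.44%, a difference of 2.05 points (-5.37 to 10.3). Whether the difference between genotypes itself differs between Th levels was not tested.

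**Figure D3:**
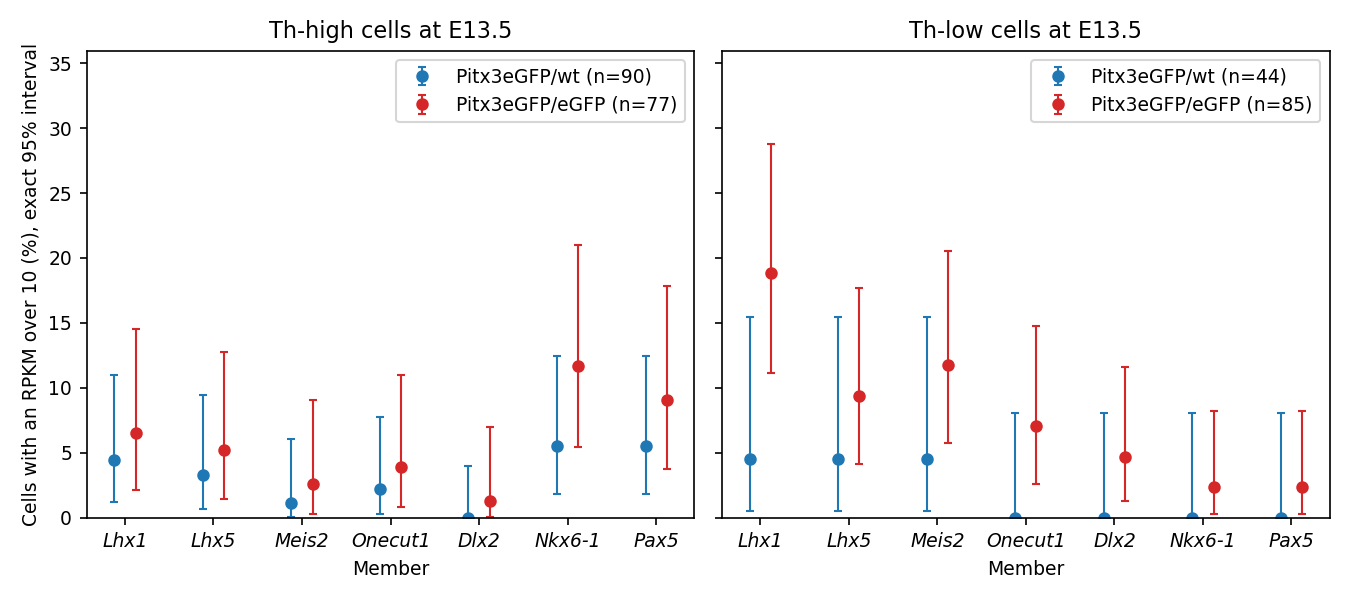
Share of Th-high cells (left) and Th-low cells (right) at E13.5 with an RPKM over 10 for 7 members, in percent with exact 95% intervals, in Pitx3eGFP/wt (blue) and Pitx3eGFP/eGFP (red) cells. Among Th-low cells the red points lie above the blue for all 7 members, from 18.8% against 4.55% for Lhx1 to 2.35% against 0% for Nkx6-1 and Pax5. The intervals overlap for each. All of the 7 but Nkx6-1 are among the members already counted as higher in these homozygous cells. Their common direction is therefore no separate evidence.

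Meis2 in Th-low cells was over 10 in 11.8% against 4.55%, Lhx5 in 9.41% against 4.55% and Onecut1 in 7.06% against 0%, and each interval of the difference included 0. Nkx6-1 had its larger shares among Th-high cells instead, 11.7% in the homozygotes and 5.56% in the heterozygotes (difference 6.13 points, -2.56 to 15.7). Of the partner lists at E13.5, 1 LIM gene was higher (Lmo2) and 2 were lower (Ldb2 and Ssbp4), 1 Groucho gene (Tle3) was lower, and no other TALE gene and no Eya or Dach gene was past 2-fold. Of the 8 dopamine neuron markers 4 were lower (Th, Slc6a3, Slc18a2 and Pitx3). Among markers of other neurons Isl1 and Gad1 were higher and Gad2 was lower, and no oligodendrocyte, astrocyte, microglia or endothelial marker was past 2-fold. The part of these markers in the differences of members was not tested.

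At P1 the picture differed. In Pitx3eGFP/eGFP over Pitx3eGFP/wt, 11 members passed the filter and 0 were higher by 2-fold or more, where 5.97% of 12667 genes were. Lower by 2-fold or more were 6, where 4.18% of all genes were. They were Meis1, Lhx6, Dlx1, Dlx2, Pax6 and Nkx2-4, again named after their values were seen. All but Meis1 had homozygous means of at most 0.615 RPKM. They passed the filter only through the heterozygous cells and so had to be lower, and the count of 6 is no evidence by itself. With only the heterozygous cells that had spike-in RNA, as all homozygous cells at P1 did, 7 members passed. Of these 1 was higher, where 10.5% of all genes were, and 1 lower, where 3.33% were. Without plate P1H_1 1 of 12 was higher (8.56% of all genes). At a filter of at least 5 RPKM 0 of 5 were higher (2.70%) and 1 lower (1.64%). With no filter 15 of 77 were higher (13.9%) and 28 lower (10.6%).

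Meis1 was over 10 in 7.93% of the homozygous and 8.89% of the heterozygous cells, and its log2 difference of -1.19 became -0.35 without the highest heterozygous cell. The other 5 were over 10 in 3 to 6 heterozygous and 0 to 2 homozygous cells each, and Pax6 went from -1.25 to -0.19 in the same way. Microglia markers were higher in the homozygotes at P1 for 4 of 4 genes, with a mean summed RPKM of 340.7 against 87.2. Endothelial markers were lower for 2 of 3, with 3.07 against 59.6, oligodendrocyte markers were lower for 4 of 10, and astrocyte markers were higher for 2 of 4. Of neuron markers, Gad1 and Isl1 were lower, as were the dopamine neuron markers Slc6a3, Slc18a2 and Pitx3, and the cycling cell marker Ccnb1 was lower too. Their part in the differences of these members was not tested.

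The widest difference in share at P1 was that of Pbx3, which stayed within 2-fold. It was over 10 in 68.9% of the homozygous and 56.7% of the heterozygous cells, a difference of 12.2 points (2.81 to 21.1), with a log2 difference of 0.51. The heterozygous share was 74.5% on the plate with spike-in and 47.2% in the cells without a named plate, so the heterozygous cells with spike-in lay above the homozygotes and the direction turned. Pbx4 was over 10 in 64% and 55.2% (difference 8.84 points, -0.723 to 18.0). Of the partner lists at P1, Tgif1 was higher and Eya2 lower, and no LIM or Groucho gene was past 2-fold.

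The third comparison sets Th-high against Th-low cells of the same group. Both classes come from the same group and animals are not named, so it describes how members are spread over the cells and not a condition. Between 4 and 40 cells of a group lay within 2-fold of the limit of 150, and between 0 and 47 within 2-fold of 10. A member that passes the filter only through the class where it is high had to differ here too, so the counts below are no evidence by themselves.

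At E13.5, 12 members passed the filter in Th-high over Th-low cells of the heterozygotes. Higher by 2-fold or more were 4, where 11.8% of all genes were, and lower 2, where 9.24% were. Pax5 and Nkx6-1 were each over 10 in 5 of 90 Th-high and 0 of 44 Th-low cells, a difference of 5.56 points (-3.07 to 12.4). Lhx1 and Irx2 were also higher, and Meis2 and Pax6 lower, on 0 to 4 cells in each class. These 4 rested on single cells. Without the highest cell of the class with the higher mean, the log2 difference of Lhx1 went from 1.68 to 0.44, and those of Meis2 and Pax6 turned, from -1.38 to 0.57 and from -4.43 to 0.87. Irx2 was then at 0 in Th-high cells, below its Th-low mean. Of the markers, Gad2, Slc32a1, Isl1, Slc1a3 and Cldn5 were lower in Th-high cells and Mbp and Cnp higher, and their part was not tested. At a filter of at least 5 RPKM none of the 6 was counted.

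At P1, 15 members passed. Higher in Th-high cells by 2-fold or more were 2, where 6.66% of all genes were, and lower 9, where 11.3% were. Pax5 was over 10 in 17 Th-high cells, 9.66%, and in 0 of 59 Th-low cells (difference 9.66 points, 2.59 to 14.9). The 9 members lower in Th-high cells were Meis1, Lhx1, Lhx5, Lhx6, Dlx1, Dlx2, Pax6, Irx2 and Six6, and apart from Meis1, with 14 and 7 cells, each was over 10 in at most 4 cells of either class. Without the highest Th-low cell, 4 of the 9 were no longer lower by 2-fold. Meis1 went from -2.40 to -0.48 and Pax6 from -2.74 to -0.49 on the log2 scale, Irx2 turned from -2.40 to 1.00, and Six6 was at 0 in both classes. Lhx1 and Lhx5 stayed lower, with Th-low means of 1.39 and 0.610 RPKM, but their averages over both classes then lay under the filter of 1 RPKM. In the same comparison endothelial markers were lower for 3 of 3 genes and microglia markers for 4 of 4. Isl1, Gad1, Slc32a1, Slc17a6, Olig2, Aqp4 and the cycling cell marker Ccnb1 were lower too, while Sox10, Pdgfra and Gpr17 of the oligodendrocyte markers were higher, and their part was not tested. Nkx2-4, the second higher member, was over 10 in 2 cells and 1, and its log2 difference turned from 2.37 to -0.92 without its highest Th-high cell.

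At P90, 6 members passed, with 0 higher by 2-fold or more, where 4.97% of all genes were, and 0 lower, where 5.05% were. They were Meis1, Meis3, Pbx2, Pbx3, Pbx4 and Pax6, with log2 differences from 0.09 for Pbx4 to 0.61 for Meis1. Without plate P90_4, 1 of 6 members was higher, where 5.60% of all genes were.

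Meis3 was over 10 in a larger share of the Th-high than of the Th-low cells in all 8 groups. At E15.5 the shares were 85.3% and 56.7%, a difference of 28.6 points (10.7 to 46.97), and the levels stayed within 2-fold. In the other 7 groups the difference was 0.564 to 11.7 points, and each interval included 0.

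**Figure D4:**
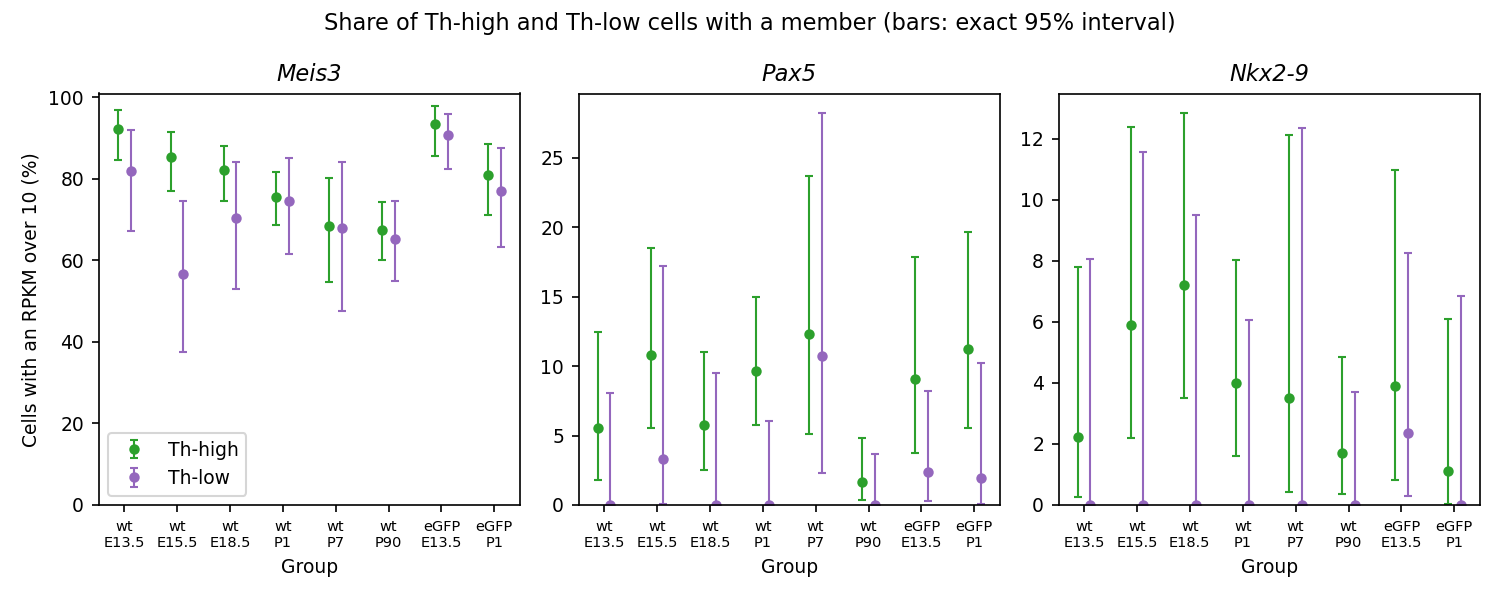
Share of Th-high (green) and Th-low (purple) cells with an RPKM over 10 for Meis3, Pax5 and Nkx2-9, in percent with exact 95% intervals, in 8 groups (wt: Pitx3eGFP/wt, eGFP: Pitx3eGFP/eGFP). Green lies above purple for Meis3 in every group, by 0.564 to 28.6 points, and Nkx2-9 is at 0% in the Th-low cells of every group except the homozygotes at E13.5, at 2.35%.

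The same comparison in the other 5 groups had no common direction. At E15.5, 11 members passed, with 4 higher in Th-high cells by 2-fold or more, where 14.5% of all genes were, and 3 lower, where 10.8% were. At E18.5, 8 passed, with 4 higher (9.33% of all genes) and 1 lower (8.55%). Nkx2-9 and Meis1 were among those higher at both stages. Gad2, Slc32a1 and Slc17a6 were lower in Th-high cells at both, with Aldh1l1 at E15.5 and Slc1a3 at E18.5, while Mbp, Mag and Isl1 were higher at E15.5 and Mag at E18.5, and their part was not tested.

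At P7, 16 members passed, with 1 higher (11% of all genes) and 9 lower (20.8%). Apart from Meis1, with 7 Th-high and 1 Th-low cell, each of the 9 was over 10 in at most 3 cells of either class. The log2 difference of Meis1 was -1.29 there, and 4.93 without that Th-low cell. Meis2 and Dlx2 turned in the same way without their highest Th-low cell, and Pax2 was then at 0 in both classes. Lhx1 and Lhx2 then had Th-low means of 0.287 and 1.23 RPKM, with averages over both classes under the filter of 1 RPKM. GABA, microglia, endothelial and cycling cell markers were lower there too, for 3 of 3, 2 of 4, 3 of 3 and 3 of 3 genes, as were Slc17a6, Chat, Isl1, Olig2, Mbp, Aqp4 and Slc1a3, and their part was not tested.

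In the homozygotes at E13.5, 20 members passed, with 2 higher (7.91% of all genes) and 12 lower (7.4%). A member that passes the filter only through its Th-low cells had to be lower, and whether the counts differ between genotypes was not tested. Pbx2 and Nkx6-1 were higher, and Lhx1, Lhx5, Meis2, Pbx3, Onecut1, Dlx1, Dlx2, Dlx5, Irx2, Six3, Nkx1-2 and Nkx6-2 lower. Of the 12, Lhx1, Lhx5, Meis2, Pbx3 and Onecut1 were over 10 in more than 4 cells of at least 1 class. Without the highest Th-low cell, Six3 and Nkx1-2 were no longer lower by 2-fold. Dlx5 and Nkx6-2 then had Th-low means of 0.836 and 0.0606 RPKM against 0, with averages under the filter of 1 RPKM. The GABA markers Gad1, Gad2 and Slc32a1 were lower in the same comparison, as were Isl1, Slc1a3 and Pecam1, while Cnp was higher, and their part was not tested. There were 6 members higher without plate 13H_5 and 4 without plate 13H_4. In the homozygotes at P1, 8 passed, with 3 higher (7.53%) and 2 lower (11.7%), and Pax5, Pbx2 and Onecut1 were the 3. Pbx2 lay at the limit, with a log2 difference of 1.00 that became 0.27 without its highest Th-high cell. Meis1 and Six5 were lower, and Six5, over 10 in 1 cell of each class, turned from -3.15 to 0.47 without its highest Th-low cell.

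Other members differed by Th level in single groups, by at least 10 points and 2-fold. At E15.5 Pbx4 was over 10 in 30.4% of Th-high and 53.3% of Th-low cells (difference 22.9 points, 3.30 to 41.3), and Meis1 in 18.6% and 6.67% (difference 11.96 points, -4.02 to 21.9). At E18.5 Lhx2, a LIM homeodomain factor of the forebrain, was over 10 in no Th-high and 5 of 37 Th-low cells, 13.5% (difference 13.5 points, 5.45 to 27.98). At P7 Pax6, a paired box factor of the forebrain and hindbrain, was over 10 in 0 of 57 Th-high and 3 of 28 Th-low cells (difference 10.7 points, 1.29 to 27.2). Of the 11 cells with Lhx2 in all groups, 0 held Slc6a3, the dopamine transporter (which allows up to 27.3%), and 2 held En1, a midbrain homeodomain factor.

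In the homozygotes at E13.5, Lhx1 was over 10 in 6.49% of Th-high and 18.8% of Th-low cells (difference 12.3 points, 1.91 to 22.6). Pbx3 was over 10 in 77.9% and 89.4% there, with a log2 difference of -1.18, and Pbx2 in 15.6% and 4.71%. In the homozygotes at P1, Meis1 was over 10 in 4.49% and 15.4% (difference 10.9 points, 1.06 to 23.3), and its log2 difference of -1.16 became -0.92 without the highest Th-low cell. In that comparison all 4 microglia markers, Olig1 and Olig2 of the oligodendrocyte markers, Slc1a3, Pecam1, Gad2 and Slc17a6 were lower in Th-high cells too and Mbp and Aqp4 higher, and their part was not tested.

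Of the partner genes by Th level, LIM-only genes were past 2-fold in most groups. Lmo2 was lower in Th-high cells of the heterozygotes at every stage but E13.5. Lmo1 was higher at E13.5, E18.5, P1 and P7 and in the homozygotes at P1, and Lmo3 at P1, P7 and P90 and in the homozygotes at P1. Ldb2, a LIM cofactor, was lower at E13.5 in both genotypes and at P7, and higher at P90 and in the homozygotes at P1. Lmo4 was higher at E18.5 and lower in the homozygotes at E13.5. Of the other TALE genes Tgif2 was lower at E13.5, P1 and P7 and in the homozygotes at P1, and higher in the homozygotes at E13.5. Pknox1 was lower at E13.5 in both genotypes, Tgif1 was lower and Pknox2 higher at P7, and Mkx was higher at P90. Tle4 of the Groucho genes was higher at E13.5 and lower at P1 and P90. Tle2 was higher at E13.5, and Tle3 at E18.5 and P1. Tle1 was higher at E15.5 and in the homozygotes at E13.5, and lower at P7. Dach2 was lower at P1, P7 and P90 and in the homozygotes at E13.5. Dach1 was lower at E13.5 and higher at P7. Eya1 was lower at E15.5 and higher at P7, at P90 and in the homozygotes at E13.5. Eya2 was lower at E15.5 and P1 and higher at P7.

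Other genes were also read in the cells that held a member, and no difference between members was tested. Where a second share is given, it is that of all kept cells weighted to the same mix of groups. Th was over 10 in 94.7% of the 38 Nkx2-9 cells, against 73.5% of all cells, and in 92% of the 87 Pax5 cells, against 72%. Nkx6-1 and Onecut2 cells also had larger shares with Th, 89.5% against 67.6% and 88.6% against 72.4%. Lhx1 cells had a smaller share, 41.5% (26.3% to 57.9%) against 61.6%, and Meis2 cells had 35% (15.4% to 59.2%) against 58.7%.

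Nxph4, which encodes a secreted ligand of neurexins, ran the other way. It was over 10 in 12.6% of the Pax5 cells against 34.2% of all cells, in 10.5% of the Nkx6-1 cells against 41.7%, in 10.5% of the Onecut1 cells against 37.2% and in 14.3% of the Onecut2 cells against 34.8%. In the 20 Meis2 cells it was over 10 in 75% (50.9% to 91.3%) against 47.2%. Gad2, an enzyme of GABA synthesis, was over 10 in 34.1% (20.1% to 50.6%) of the 41 Lhx1 cells against 14.9%, and in 35.7% (18.6% to 55.9%) of the 28 Lhx5 cells against 14.1%. It was over 10 in 6 of the 12 Dlx2 cells and in 1 of the 38 Nkx2-9 cells.

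**Figure D5:**
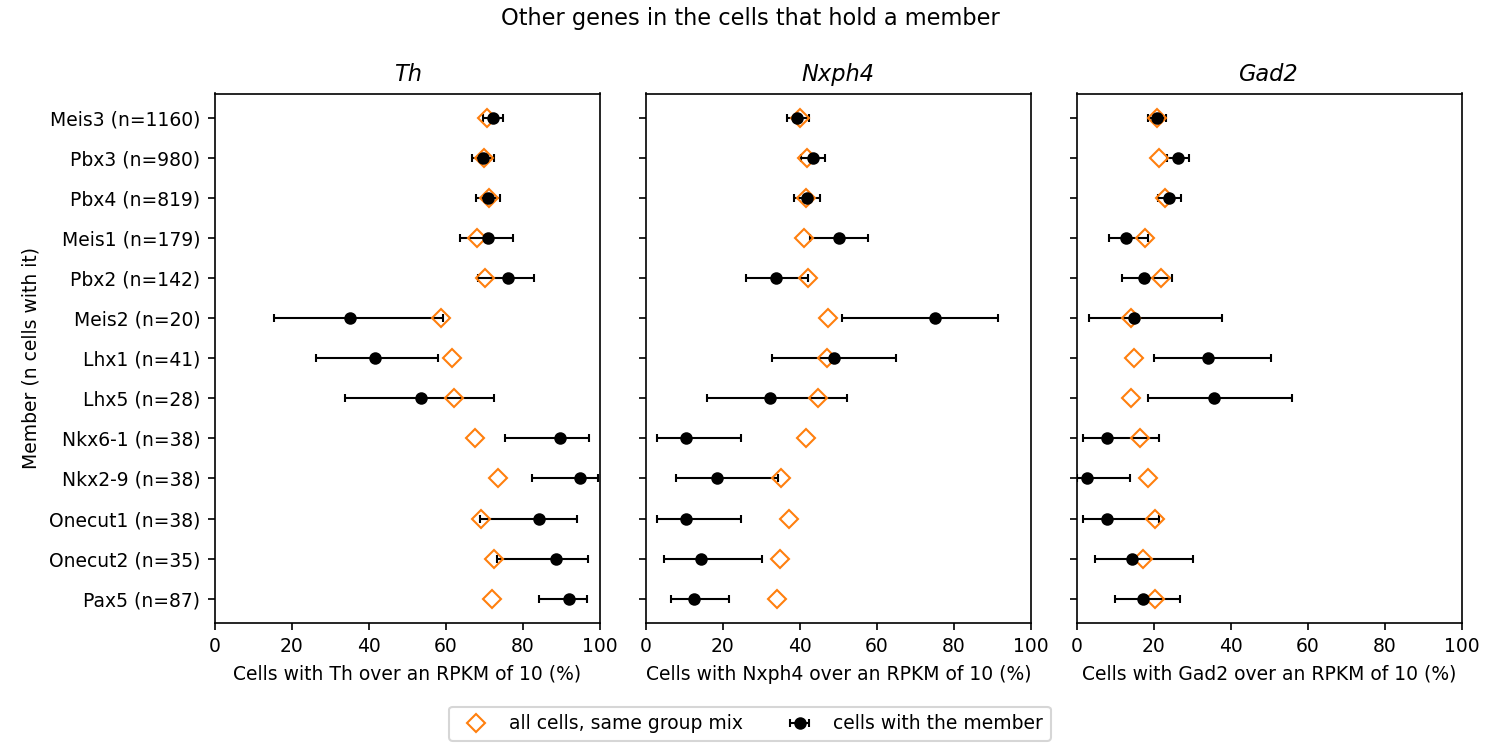
Share of the cells holding each of 13 members (vertical axis, n cells in brackets) that also had Th, Nxph4 or Gad2 over an RPKM of 10, in percent. Black points with exact 95% intervals are the cells with the member and orange diamonds are all kept cells in the same mix of groups. Nkx6-1, Nkx2-9 and Pax5 lie right of their diamonds for Th and left of them for Nxph4.

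Among the TALE members, Slc17a6 was over 10 in 81.6% (75.1% to 87%) of the Meis1 cells against 64.2% of all cells, and in 60% to 71.7% of the cells of the other 5. Slc6a3 was over 10 in 19% (13.5% to 25.5%) of the Meis1 cells against 29.3%, in 10% of the Meis2 cells and in 32.9% to 46.5% of the cells of the other 4. Of the 20 Meis2 cells 13 were homozygous cells at E13.5, a group in which Slc6a3 was over 10 in 2.79%. Except for Meis1, these shares are given without all cells in the same mix of groups, so they cannot be compared between members. Many of these cells hold several TALE members, and no difference between members was tested. En1 was over 10 in 97.4% of the Nkx6-1 cells against 79%, and in 90.8% of the Pax5 cells against 77.9%, while it was over 10 in 65.9% of the Lhx1 cells against 79.9% and in 53.6% of the Lhx5 cells against 82.3%. At least 2 oligodendrocyte markers were over 10 in 24.1% of the Pax5 cells against 16.4%, in 11.2% of the Meis1 cells against 10.8% and in 7.32% of the Lhx1 cells against 7.29%. No Lhx1 cell of the 41 had 2 or more astrocyte, microglia or endothelial markers.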

How the data were processed

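Deposited files of single cells gave, for each of 39468 Ensembl entries, a read count and an RPKM. The authors aligned reads with STAR to mm10 with eGFP and spike-in sequences, kept uniquely mapped reads and did not normalize the deposited counts. The authors scaled the deposited RPKM values by gene length and by the reads of the cell with rpkmforgenes. Because counting ignored strand, overlapping genes may share reads.

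Cells needed over 100000 reads and reads in 15% or more (3.4% at P90) of 31526 expressed entries, and 50 cells failed. Cells up to P7 and P90 cells were clustered separately (Leiden, resolution 3, 15 neighbours, 50 principal components of 1000 variable genes), and cells in clusters with at least 3 of 10 oligodendrocyte markers in most cells were left out. The resolution was chosen after seeing the data. No doublet caller was run, as single cells were sorted. Kept cells came from 12 named plates, with 547 cells on none.

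Groups came from genotype and age in the labels. Where a group had no read, folds used 3 reads over the group. The rule for naming members in a comparison was 2-fold with shares at least 10 points apart, and members outside it are named after their values were seen. Coordinates are from the GENCODE annotation of GRCm38. Entries of the same identifier were summed, as for both entries of Onecut1. The rule also takes 2 genes that are not reported here. The members, the partner lists and the marker lists were chosen with earlier results of these data known. Alternatives were another RPKM limit, filter, fold, depth, spike-in, Th limit or plate set. Python 3.11.15, numpy 2.4.6, scipy 1.17.1 and leidenalg 0.10.2 were used, and the scripts were tested on simulated data.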

Additional observations from a re-analysis of the deposited data

How the results depend on the processing

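Of the counts recomputed under another setting, 66 moved by over 1.5 times and are given here. Members found in 5% of the cells of a group were 8 instead of 13 at an RPKM over 50 and 21 with the oligodendrocyte-like cells kept in, and the median cell at P90 then held 1 member at an RPKM over 50. In the comparisons below, the share of all genes called stands in brackets behind each count. At a mean of at least 5 RPKM, 3 of 4 members were lower at P90 than at E13.5 (22.2%). In the homozygotes 3 of 7 were higher at E13.5 (1.83%) and 1 of 5 was lower at P1 (1.64%). In Th-high cells 0 of 4 were higher (6.77%) and 0 lower (5.11%) at E13.5. At P1 1 of 8 was higher there (3.18%) and 4 lower (5.47%). With no filter on the mean, members higher and lower were 14 and 25 at P90, 34 and 7 in the homozygotes at E13.5, 15 and 28 at P1, and 13 and 7, 13 and 22, and 12 and 13 in Th-high cells at E13.5, P1 and P90. At 1.5-fold, and also with cells thinned to 100000 reads, 1 member was lower in the homozygotes at E13.5, and at 1.5-fold 2 were higher in Th-high cells at P90. Members higher in Th-high cells at P1 were 1 of 16 with Th-low up to 150 (5.16%). With oligodendrocyte-like cells removed one by one they were 1 of 16 (6.30%), and with none of them removed 1 of 19 (6.02%). With only spike-in cells at P1, 1 of 7 members was higher (10.5%) and 1 lower (3.33%) in the homozygotes. Leaving out each plate in turn gave 4 to 12 members higher (5.55% to 6.56%) and 0 to 1 lower (5.44% to 5.92%) in the homozygotes at E13.5. At P1 it gave 0 to 1 higher (4.64% to 8.56%), with 1 without plate P1H_1. In Th-high cells at P90 it gave 0 to 1 higher (5.60% to 6.03%), with 1 without plate P90_4. For Th-high against Th-low cells at E15.5, E18.5 and P7 and in the homozygotes at E13.5 and P1, recomputed after the data had been seen, members higher and lower at a mean of at least 5 RPKM were 1 and 1, 0 and 0, 0 and 3, 0 and 6, and 1 and 0. With no filter they were 11 and 6, 10 and 6, and 6 and 16 at the 3 heterozygous stages and 14 and 11 in the homozygotes at P1, and 8 were higher in the homozygotes at E13.5. With summed reads 0 were higher at P7, 7 were higher in the homozygotes at E13.5 and 1 was lower in those at P1. At 1.5-fold 2 of 8 were lower at E18.5 (16.8%). With cells thinned to 100000 reads 1 of 9 was lower at E15.5 (11.3%), 1 of 18 was higher in the homozygotes at E13.5 (8.40%) and 1 of 7 lower in those at P1 (12.3%). Lower in the homozygotes at P1 were also 1 of 7 with oligodendrocyte-like cells removed one by one (12.7%) and 6 of 12 with none of them removed (15.4%). With Th-low up to 150, 0 of 7 were lower there (12.1%), and at P7 5 of 19 were higher with none removed (18.1%). Leaving out each plate in turn gave 2 to 6 higher in the homozygotes at E13.5. Of the highest shares of the 13 members, 6 left their interval at an RPKM over 1, 10 at an RPKM over 50 (Onecut2 from 7.14% to 0% and Meis1 from 26.8% to 12.8%), 1 with thinned cells and 1 with oligodendrocyte-like cells kept in. The cause of these changes was not tested.

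No paired analysis was possible because no result came from a test and cells of different groups share no animal or number. With no animal named, differences between groups hold for these cells only. Shares near 1% rest on 1 to 3 cells, and no reads from a member in a cell does not show that it was not transcribed there.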
